A study of Mus musculus with 2 samples.

Results

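Open chromatin in the gene deserts of the mouse cortex was described from 4340 regions that DNase I cut in both libraries of the series. A region was a merged stretch holding a peak of each replicate, taken from the shorter peak list of each library. It was kept when it lay on an autosome, when its midpoint lay in no gene of the GENCODE M21 annotation, and when that midpoint lay over 200 kb from the nearest start site of a protein-coding gene. The 4340 regions were 6.70% of the 64789 regions shared by the libraries and 6.86% of the 63270 on autosomes (exact 95% binomial interval 6.66 to 7.06). They were 16.7% of the 26012 autosomal shared regions in no gene. The rule used position and presence in both libraries and set no threshold on the height of a peak. Presence in both shorter lists still went with height. Desert regions found in 1 library had a median peak value of 0.368 in replicate 1 and 0.383 in replicate 2. Those found in both had 0.577 and 0.704. The comparison regions had to be present in both libraries as well. The series measured the right cerebral cortex of adult female mice aged 18 to 20 months of the strain B6CASTF1/J, the first-generation hybrid of C57BL/6J and CAST/EiJ. It has 1 group of 2 biological replicates, no treatment and no control. The labels give both replicates the same donor identifier, so nothing shows whether they were separate animals and their spread may be partly technical. With 2 samples a two-sided paired permutation test cannot give a p below 0.5, so all values are descriptions and no test was made.

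DNase I cuts DNA where nucleosomes are displaced, so a peak of cutting marks promoters, enhancers and other sites bound by proteins. A footprint is a short stretch within such a peak that is cut less than its surroundings, as happens under a bound protein. Gene deserts are long stretches without protein-coding genes, and some hold enhancers that act over great distances on developmental and neuronal genes at their edges. AP-1 is the dimer of FOS and JUN proteins that forms after neuronal activity and other stimuli, bHLH proteins of the NEUROD and NEUROG families bind an E-box, and CTCF with cohesin holds the ends of chromatin loops. A peak of each replicate lay at the promoter of 8 of 12 cortical marker genes, as it did for 6 of 8 glial markers, 3 of 6 markers of other brain parts and 0 of 6 liver or 5 muscle markers. The part played by any one cell type was not tested, since the tissue was measured as a whole.

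6 desert regions are shown to give the text of the sites described below, 5 of them among the 8 strongest and 1 the second farthest from a coding start site. Each is the forward strand of GRCm38 (mm10) from RefSeq, 5′ to 3′, named by its coordinates and the nearest protein-coding genes on either side. Capitals mark bases that lay inside a footprint in both replicates.
chr8:20122141-20122320, Gm31371 to Gm15319: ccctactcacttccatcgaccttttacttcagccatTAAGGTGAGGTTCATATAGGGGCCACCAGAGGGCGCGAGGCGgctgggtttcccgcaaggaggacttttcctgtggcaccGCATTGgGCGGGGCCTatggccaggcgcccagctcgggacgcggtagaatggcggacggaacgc
chr10:126511601-126511820, Lrig3 to Atp23: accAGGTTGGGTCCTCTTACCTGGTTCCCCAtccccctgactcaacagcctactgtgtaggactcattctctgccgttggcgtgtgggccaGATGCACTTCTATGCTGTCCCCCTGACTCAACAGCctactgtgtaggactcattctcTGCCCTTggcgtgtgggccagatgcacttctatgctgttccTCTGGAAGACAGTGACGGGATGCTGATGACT
chr1:102628161-102628360, Cntnap5b to Cdh20: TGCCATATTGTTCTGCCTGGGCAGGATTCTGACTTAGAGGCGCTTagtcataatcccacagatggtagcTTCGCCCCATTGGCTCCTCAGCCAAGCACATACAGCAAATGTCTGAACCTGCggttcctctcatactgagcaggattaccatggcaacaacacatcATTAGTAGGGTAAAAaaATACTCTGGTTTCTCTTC
chr13:59145761-59145960, Ntrk2 to Agtpbp1: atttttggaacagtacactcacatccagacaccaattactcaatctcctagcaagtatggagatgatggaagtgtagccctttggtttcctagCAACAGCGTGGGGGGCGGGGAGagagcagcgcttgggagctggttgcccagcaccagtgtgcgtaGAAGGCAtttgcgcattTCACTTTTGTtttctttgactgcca
chr2:21918321-21918560, Gpr158 to Myo3a: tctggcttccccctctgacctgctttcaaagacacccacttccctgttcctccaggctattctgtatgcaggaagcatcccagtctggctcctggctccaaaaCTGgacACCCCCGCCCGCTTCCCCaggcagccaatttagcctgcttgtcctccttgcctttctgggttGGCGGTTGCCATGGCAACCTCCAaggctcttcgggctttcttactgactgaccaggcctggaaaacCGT
chr14:82244993-82245200, Olfm4 to Pcdh17: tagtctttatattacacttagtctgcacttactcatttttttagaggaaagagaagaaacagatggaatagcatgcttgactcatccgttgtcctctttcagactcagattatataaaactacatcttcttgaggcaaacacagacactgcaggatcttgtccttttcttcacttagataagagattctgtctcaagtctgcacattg

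The chr8 region has its only match to the CTCF consensus wholly inside the shared footprints. The chr10 region holds the AP-1 letters TGANTCA, where N is any base, in 2 places, and a stretch of 44 bases recurs in it 77 bp further on. Of those 2 AP-1 matches 1 lay wholly inside footprints of both replicates and 1 lay outside them. The chr2 region carries the short RFX site GTTGCCA followed at once by its reverse complement, and this palindrome of 14 bases lay wholly inside a shared footprint. Among all desert regions 3 held that palindrome (0.0691%), against 13 of 21672 intergenic regions nearer to genes (0.0600%) and 27 of 37258 regions in genes (0.0725%). The chr1 region has an E-box and the short RFX site, and neither lay inside the shared footprints. The chr14 region holds an AP-1 match and an E-box but has no base that was inside a footprint in both replicates.

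The motifs that recur in the desert regions are shown in 3 strong examples, with the motif in capitals and the same build and strand. The first holds the CTCF consensus, the second the AP-1 letters and the third the E-box CAGATGG, here on the reverse strand.
chr13:84758621-84758840, Tmem161b to Ccnh: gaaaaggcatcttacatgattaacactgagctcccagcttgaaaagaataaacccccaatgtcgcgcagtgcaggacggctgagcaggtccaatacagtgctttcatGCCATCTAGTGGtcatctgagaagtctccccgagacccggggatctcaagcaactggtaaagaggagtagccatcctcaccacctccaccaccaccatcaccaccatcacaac
chr10:126511601-126511820, Lrig3 to Atp23: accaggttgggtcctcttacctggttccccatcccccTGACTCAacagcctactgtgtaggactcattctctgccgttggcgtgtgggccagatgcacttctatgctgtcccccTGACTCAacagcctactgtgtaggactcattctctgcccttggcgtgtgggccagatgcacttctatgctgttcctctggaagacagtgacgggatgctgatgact
chr9:61677101-61677340, Tle3 to Rplp1: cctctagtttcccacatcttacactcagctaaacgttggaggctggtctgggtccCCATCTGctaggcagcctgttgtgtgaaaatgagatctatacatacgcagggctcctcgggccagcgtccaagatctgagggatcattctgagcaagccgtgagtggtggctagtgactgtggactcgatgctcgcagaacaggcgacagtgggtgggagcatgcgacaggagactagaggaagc

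Desert sequence was large but held few shared regions per Mb. Sequence that met the same position rule made up 458 Mb, or 19.1% of the autosomes, and it held 9.48 shared regions per Mb. Intergenic sequence within 200 kb of a coding start site held 27.9 per Mb and sequence in genes 32.1. The density in deserts was 0.312 of that outside them for shared regions. From each library's own peaks it was 0.327 in replicate 1 and 0.317 in replicate 2 (mean 0.322 ± 0.00692, SD, n = 2). Deserts were thus about as sparse in either replicate, and the spread between replicates was small beside the difference. Among the stronger 50% of peaks the ratio was 0.131.

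Distance from genes went with both the number and the height of open regions. The median desert region lay 372548 bp from the nearest coding start site and the farthest 2216386 bp away. Of the 4340 regions 1330 (30.6%) lay over 500 kb away and 282 (6.498%) over 1 Mb. Intergenic density was 61.1 shared regions per Mb within 10 kb of a coding start site, 23.0 from 10 to 50 kb, 19.6 from 50 to 100 kb and 15.4 from 100 to 200 kb. Within the deserts it was 12.1 per Mb from 200 to 500 kb, 7.35 from 500 to 1000 kb and 4.26 beyond 1000 kb. The threshold of 200 kb therefore lay on a slope and marked no step. The regions just inside it, at 200003, 200011 and 200053 bp, had values of 0.577, 2.07 and 0.383 in replicate 1 and 0.392, 1.58 and 0.571 in replicate 2. Those just outside, at 199998, 199953 and 199938 bp, had 1.19, 0.711 and 0.378 in replicate 1 and 1.42, 1.08 and 0.410 in replicate 2.

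**Figure D1:**
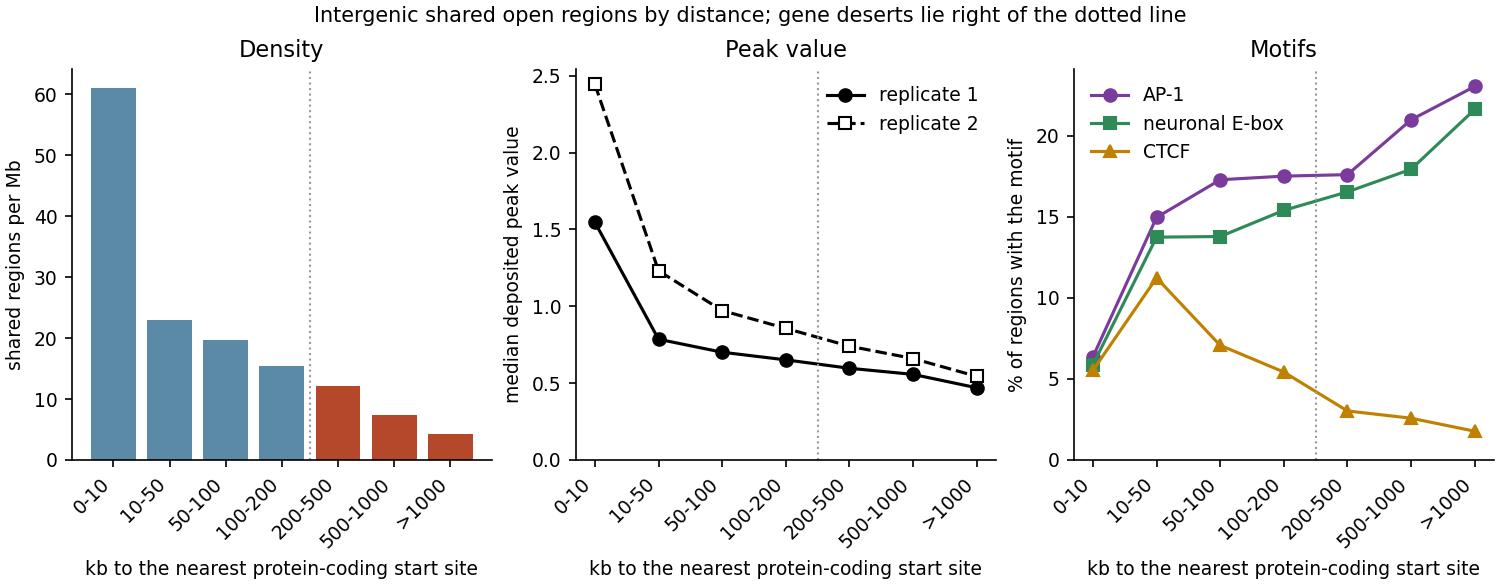
Shared open regions per Mb, their median deposited peak value in each replicate, and the percent with each motif, for intergenic regions by distance in kb to the nearest protein-coding start site. Desert regions lie right of the dotted line: there the density was 12.1, 7.35 and 4.26 per Mb, the share with the CTCF consensus 3.02%, 2.58% and 1.77%, and that with AP-1 letters 17.6%, 20.99% and 23.0%.

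Desert regions were cut less than regions near genes in both replicates. The peak value is the authors' deposited signal, and a region took that of its strongest peak. In tissue, a site open in few cells and one cut little in many cells cannot be told apart. Over the 4340 desert regions the median was 0.577 in replicate 1 and 0.704 in replicate 2. Over the 21672 intergenic regions nearer to genes it was 0.910 in replicate 1 and 1.41 in replicate 2. The log2 ratio of these medians was -0.66 in replicate 1 and -1.0 in replicate 2 (mean -0.83 ± 0.24, SD, n = 2). That comparison includes promoters, so intergenic regions from 10 to 200 kb were also used, with medians of 0.731 and 1.08. The log2 ratio against them was -0.34 and -0.62 (mean -0.48 ± 0.19, SD, n = 2). Desert values were thus lower against either set in both replicates, by more than the spread between replicates. Among the stronger 50% of peaks the mean log2 ratio against all intergenic regions nearer to genes was -0.51. Of desert regions 50.8% in replicate 1 and 57.6% in replicate 2 lay in the lowest quartile of all autosomal shared regions, and 7.70% and 4.88% in the highest.

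**Figure D2:**
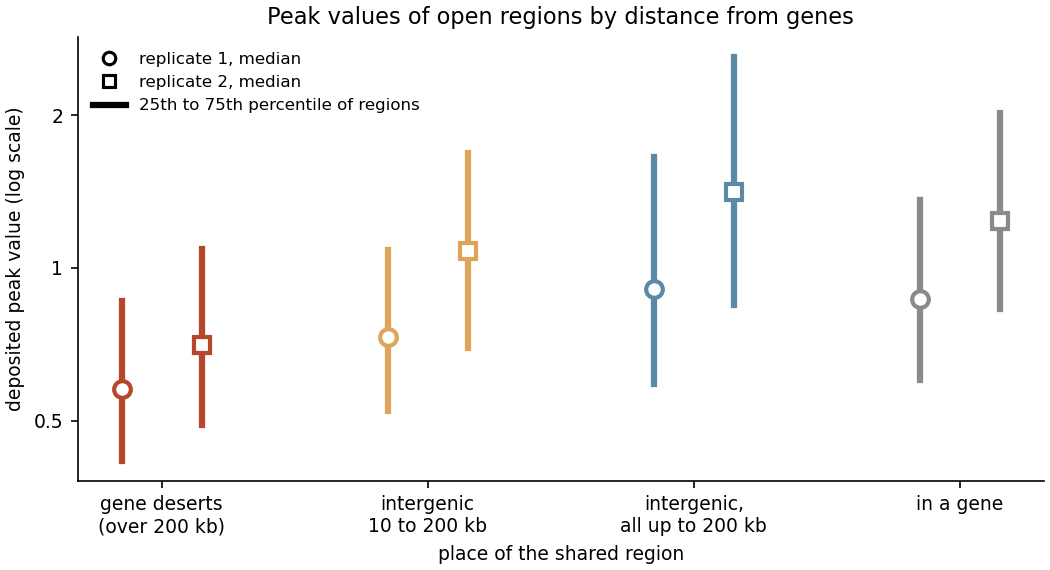
Deposited peak value on a log axis for shared regions in gene deserts, intergenic regions 10 to 200 kb from a coding start site, all intergenic regions up to 200 kb, and regions in a gene. Circles and squares are the medians of replicates 1 and 2 and lines run from the 25th to the 75th percentile of regions; the desert medians, 0.577 and 0.704, are the lowest in either replicate.

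Depth limits these values. Deposited values came in whole steps of 0.00497 in replicate 1 and 0.00892 in replicate 2. Taking 1 step as 1 read puts the depth at about 201 M for replicate 1 and 112 M for replicate 2, where M is mega, an inference that the files do not state. The median desert region then had 116 reads behind it in replicate 1, with an exact 95% Poisson interval of 95.9 to 139, and 79 reads in replicate 2, with one of 62.5 to 98.5. The intervals cover counting error only. Reads were placed on the C57BL/6J reference, and how alleles of the CAST/EiJ parent were counted was not tested.

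The strongest desert region was at chr8:20122141-20122320, between the protein-coding genes Gm31371 and Gm15319. Its value was 7.41 in replicate 1 and 12.8 in replicate 2. It lay 153 bp from the start of the processed pseudogene Gm21769, and 3 of the 5 words of 32 bases checked in it recurred in the genome, up to 4 times, so reads there may belong to a copy. The region at chr10:126511601-126511820, between Lrig3 and Atp23, had 7.29 in replicate 1 and 5.46 in replicate 2. All its checked words were single in the genome, and it lay 390 kb from the nearest coding start site. The region at chr12:29291021-29291360 had 5.56 and 5.50 and lay 237 kb before the gene Myt1l, a zinc finger factor that represses non-neuronal genes in neurons. Relative to the median difference between replicates over all autosomal shared regions, the log2 difference, replicate 1 minus replicate 2, was -0.34 at the chr8 region, 0.86 at the chr10 region and 0.46 at the chr12 region.

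The other 5 of the strongest sites had values between 2.56 and 8.76. The region at chr1:102628161-102628360 had 3.33 in replicate 1 and 8.76 in replicate 2 and lay 2140 kb from the nearest coding start site, that of the cadherin gene Cdh20. It was both among the 8 strongest and the 5 farthest, and 2 of its 5 words recurred, up to 5 times. The region at chr13:59145761-59145960 had 3.41 and 4.52 and lay 11.9 kb past the end of Ntrk2, which encodes the receptor of brain-derived neurotrophic factor. Its nearest start site was that of the lincRNA Gm34354, 12 bp away. The region at chr1:7397861-7398280 had 3.37 and 6.30, lay between Pcmtd1 and the syntrophin gene Sntg1, and was 202 bp from the start of the lincRNA Gm26901. The region at chr2:21918321-21918560 had 3.72 and 3.84 and lay between Gpr158, a receptor of the brain, and Myo3a, a myosin of hair cells. The last of the 8, between Pik3c3 and the neuronal GTPase gene Rit2, had 2.56 and 5.28 and held the CTCF consensus and an E-box. Of these 8 regions 3 lay within 1 kb of a start site of some non-coding gene or pseudogene, which the position rule allows.

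The 5 regions farthest from genes held 1 strong site. The farthest, in the gap between Celf4 and Pik3c3, lay 2216 kb from a coding start site with values of 0.746 in replicate 1 and 0.544 in replicate 2. A second in that gap, 2195 kb away, had 0.989 and 1.77. The chr14 region shown above, 2198 kb from the protocadherin gene Pcdh17, had 0.746 and 0.562. The region at chr1:102590021-102590294 had 0.552 and 0.437, was 100% soft-masked repeat, and 2 of its 5 words recurred up to 171 times. Against these values of 0.437 to 1.77 the Cdh20 site stood apart, at 3.33 and 8.76.

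Most desert regions were not within 1 kb of a start site of a gene of any other type. Their distance from coding start sites was set by the rule. The rule also dropped midpoints inside any gene, which limits how many can lie beside a start site. The median distance to a start site of a gene of any type was 50.7 kb, and 1134 regions (26.1%) lay over 100 kb from one. Within 1 kb of such a start site lay 111 (2.56%), of which 57 were beside lincRNA genes and 15 beside processed pseudogenes. Their median values were 0.691 in replicate 1 and 0.981 in replicate 2, against 0.577 and 0.704 for the other desert regions. Immunoglobulin and T cell receptor segments are not classed as protein-coding in the annotation, so 28 regions (0.645%) in 3 clusters of such segments met the rule. A coding gene ended within 50 kb of 66 regions (1.52%), as at Ntrk2.

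Desert regions were spread over most gaps between coding genes, at uneven density. There were 826 gaps with desert sequence, and 666 (80.6%) held at least 1 shared region, with a median of 3. Of the 142 gaps with at least 1 Mb of desert sequence all but 1 held a region, at a median of 6.83 per Mb and a range of 0 to 30.3. The 83 gaps with most regions, 10.05% of the gaps, held 34.9% of the regions on 29.3% of the desert sequence. By chromosome the density ran from 6.63 per Mb on chromosome 6 to 12.8 on chromosome 13. The median distance from a desert region to the next one was 26.9 kb, against 12.6 kb for intergenic regions nearer to genes, and 21.6% against 31.9% had a neighbour within 5 kb.

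The gaps with most open regions held 26 to 37 each, and several were flanked by genes with known roles in neurons. The gap between Celf4, an RNA-binding protein of neurons, and Pik3c3 held 37 shared regions in 3.61 Mb of desert sequence, or 10.2 per Mb. The gap between Auts2, a gene of neuronal development, and Castor2 held 33 in 1.09 Mb. At 30.3 per Mb it was the densest of the gaps with at least 1 Mb, with medians of 0.755 in replicate 1 and 0.865 in replicate 2. The gap between Celf2 and Gata3 held 31, that between Slc10a2 and the ephrin gene Efnb2 held 30, and that between Slc4a3 and the ephrin receptor gene Epha4 also held 30, at 25.5 per Mb. The gap between Zeb2, a transcription factor of the developing cortex, and Acvr2a held 27, at 9.62 per Mb. The gaps between Klhl29 and Apob, between Sel1l and Flrt2 and between Kcnj2 and Sox9 held 26 each. Of these the Zeb2 and Celf4 gaps were close to the mean of all desert sequence, 9.48 per Mb, so their high count went with their length. The Flrt2 gap was below that mean, at 7.63 per Mb.

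Small deserts gave both ends of the density range. Of the 160 gaps without a shared region 159 held under 1 Mb of desert sequence, as did 684 of all 826 gaps. Of those 684 gaps 23.2% had no shared region, against 0.704% of the 142 longer ones. At the dense end counts were small as well. Between Hivep2 and Adgrg6 10 shared regions lay in 0.0908 Mb of desert sequence, or 110 per Mb, with medians of 1.48 in replicate 1 and 1.92 in replicate 2. Between Serp2 and Lacc1 6 lay in 0.0705 Mb, with medians of 1.81 and 2.14. Both pairs of medians were over those of all desert regions, 0.577 and 0.704. The gaps between Ntm and Snx19, between Tle3 and Rplp1 and between Ttc32 and Osr1 held 5, 6 and 8 regions at 83.8, 57.4 and 57.1 per Mb.

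Some long deserts held few or no shared regions. Whether reads could be placed on all of their sequence was not tested. Between Pot1a and Grm8, a metabotropic glutamate receptor gene, 1.26 Mb of desert sequence held 0 shared regions, 0 peaks of replicate 1 and 3 peaks of replicate 2. Between Ywhaq and Gm10330 1.63 Mb held 1 region, with values of 0.169 and 0.250. Between Nxph1, a secreted ligand of neurexins, and Ndufa4 2.36 Mb held 3. Between Ankrd7 and the potassium channel gene Kcnd2 1.91 Mb held 3, and between Adam6a and Zfp386, where immunoglobulin heavy chain segments lie, 1.99 Mb held 3. Neuronal genes thus flanked both the richest and the poorest deserts.

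**Figure D3:**
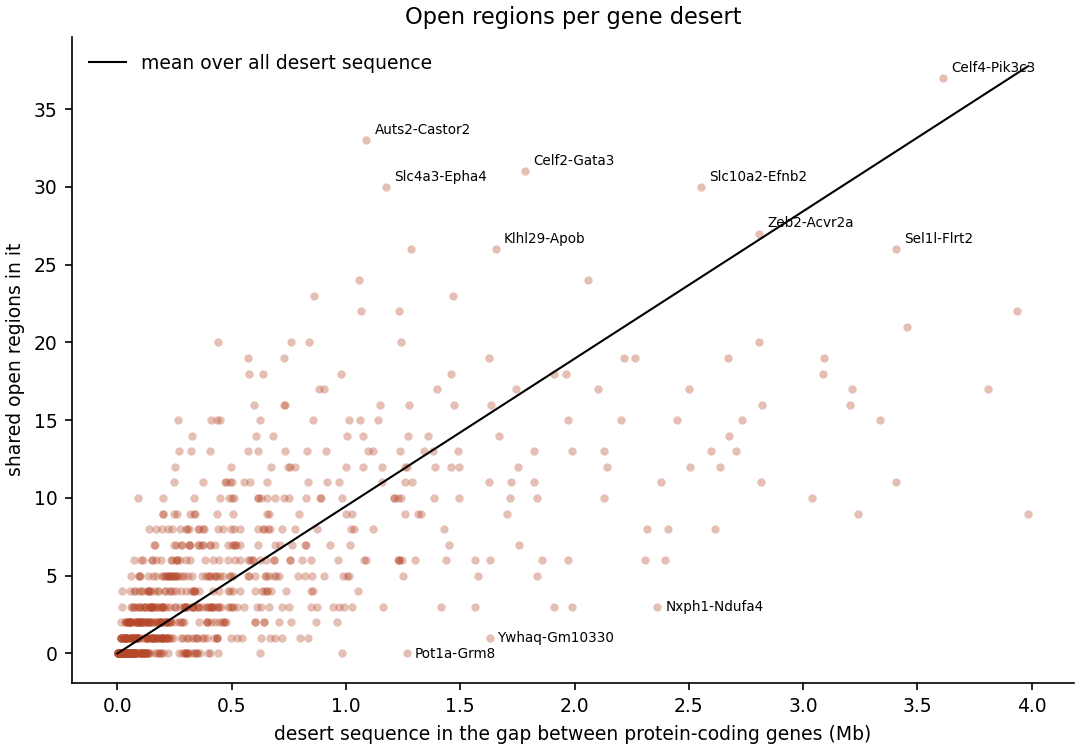
Number of shared open regions in each of the 826 gaps between protein-coding genes against its desert sequence in Mb, with the mean of 9.48 per Mb as a line. Named points are the gaps with most regions, from Celf4-Pik3c3 with 37, and 3 of the sparsest long gaps, from Pot1a-Grm8 with 0.

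Gene lists differed in how many regions lay beside their members per Mb. Of 82 genes of synaptic adhesion and axon guidance 65 flanked a desert, and their 97 gaps held 785 regions, 18.1% of all, on 26.8% of the desert sequence. That is 6.40 per Mb, against 9.48 over all deserts. Density fell with distance from genes, and the median over gaps with at least 1 Mb of desert sequence was 6.83 per Mb. The part of gap length in the densities of the lists was not tested. The genes named for each list are beside its gaps with most regions, so a gene with 2 gaps can exceed them. Flrt2, a guidance ligand, had 43 beside it at 7.81 per Mb, and Epha4 had 35 at 24.5. Pcdh17 had 33 at 5.73, the cadherin gene Cdh8 32 at 5.88 and the ephrin gene Efna5 19 at 6.15. Of these only Epha4 was over the mean of all deserts. Of 59 transcription factors of the cortex 41 flanked a desert, with 343 regions at 11.5 per Mb. Zeb2 had 27 beside it at 9.62 per Mb, Nr2f1 18 at 9.42 and Sall1 17 at 18.8. Id2 had 15 at 24.1 and Mef2c 15 at 13.7. Of 67 channel and receptor genes 38 flanked a desert, with 218 regions at 8.47 per Mb. Among them the potassium channel genes Kcna4 and Kcnt2 had 23 at 15.7 per Mb and 19 at 7.11. The kainate receptor gene Grik2 had 18 at 5.61.

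Lists that do not mark neurons were not poorer. Of 28 glial genes 5 flanked a desert, with 53 regions at 17.4 per Mb, and of 33 genes of non-neural tissue 10 did, with 55 at 13.1 per Mb. Sox9, a factor of astrocytes and of cartilage that stands in both lists, had 28 regions beside it, at 20.3 per Mb. Those 28 were counted among both the 53 and the 55, so the 13.1 per Mb rests in large part on Sox9. Sall1, which stands in the glial list and among the cortical transcription factors, had 17 regions beside it. Without the gaps beside Sox9 and Sall1 the glial list held 8 regions at 10.5 per Mb. Gja1, the gap junction gene of astrocytes, had 5 at 7.71 per Mb. The limb and breast factor gene Tbx3 had 8 at 16.1 and the liver factor gene Foxa2 had 5 at 18.6. Median values per list lay between 0.542 and 0.621 in replicate 1 and between 0.642 and 0.838 in replicate 2. A gap has a gene on each side, and these data do not tie a region to either of them.

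Sequence in the desert regions was poorer in G and C than in other open regions. In the central 200 bp the median GC content was 45%, against 52% in intergenic regions nearer to genes and 49% in those from 10 to 200 kb. Windows 2 kb beside the desert regions had 40%, so the open sites were richer in GC than their surroundings. The mean number of CpG sites per window was 2.29 in desert regions and 7.53 in intergenic regions nearer to genes, and 18.3% against 6.16% had none. The regions nearer to genes include promoters. In those from 10 to 200 kb the mean was 3.87, and 8.75% had none. The median width was 240 bp both in desert regions and in all intergenic regions nearer to genes. Of desert regions 2.40% were mostly soft-masked repeat, against 1.36% nearer to genes. A word of 32 bases that recurs in the genome was found in 142 desert regions (3.27%), against 3.74% nearer to genes.

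AP-1 and the neuronal E-box were the commonest motifs searched. Either strand was searched for fixed letters in the central 200 bp, and a match is not a bound site. TGANTCA was in 815 desert regions (18.8%, exact 95% interval 17.6 to 20.0), where 12.6% of all autosomal shared regions held it. It was in 12.02% of intergenic regions nearer to genes, in 16.1% of those from 10 to 200 kb and in 6.54% of windows beside the desert regions. The same letters reversed without complement were in 5.67% of desert regions. CAGATGG was in 747 desert regions (17.2%, 16.1 to 18.4), where 11.6% of all autosomal shared regions held it. It was in 10.7% of intergenic regions nearer to genes, in 14.1% of those from 10 to 200 kb and in 3.29% of the windows beside, and reversed it was in 0.945%. At least 1 of the 2 motifs was in 33.3% of desert regions, against 21.2% of intergenic regions nearer to genes, and both were in 116 (2.67%). The regions nearer to genes include promoters, and the share with either motif was not computed for those from 10 to 200 kb.

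The CTCF consensus and motifs of promoters were less frequent in desert regions than in regions nearer to genes. The CTCF consensus was in 123 desert regions (2.83%, 2.36 to 3.37), where 5.72% of all autosomal shared regions held it. It was in 7.51% of intergenic regions nearer to genes, in 8.94% of those from 10 to 200 kb and in 0.0576% of the windows beside desert regions. By peak value it was less frequent in desert regions than nearer to genes in every quartile of replicate 1, with 1.20% against 2.85% in the highest. In replicate 2 this held in every quartile but the highest, with 6.80% against 12.1% in the third. In the highest quartile of replicate 2 it was in 8.96% of 212 desert regions against 8.62% nearer to genes. The SP letters GGGGCGGGG were in 0.276% of desert regions against 6.41% nearer to genes, those of ETS factors, CCGGAAG, in 0.714% against 5.19%, and those of EGR factors in 0.230% against 3.23%. The CRE letters TGACGTCA were in 0.161% against 1.49%. Regions nearer to genes include promoters. In intergenic regions from 10 to 200 kb the shares were 1.18% for SP, 1.34% for ETS, 0.668% for EGR and 0.541% for CRE. Reversed without complement, the ETS letters were in 1.34% of desert regions, the CRE letters in 0.829% and the EGR letters in 0.0691%. The SP letters read the same reversed. The SP, ETS, EGR and CRE letters contain CpG, which was itself scarcer in desert regions. The octamer of POU factors, ATGCAAAT, was in 3.13% against 1.75%, with 2.18% from 10 to 200 kb and 1.96% in the windows beside. The NFI palindrome, TGGC and GCCA 5 bases apart, was in 1.61% against 1.14%, with 1.32% from 10 to 200 kb and 0.242% in the windows beside. The short RFX site was in 4.26% against 4.68%, with 1.84% beside. Other letters were scarcer in desert regions than beside them. Those of SOX factors, ACAATGG, were in 2.28% against 1.62% nearer to genes, with 3.69% beside. Those of nuclear receptors, AGGTCA, were in 3.92% against 5.81%, with 10.4% beside. Reversed, these 2 were in 2.05% and 12.9% of desert regions. Base composition differs between all these sets, and its part in the shares was not tested.

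**Figure D4:**
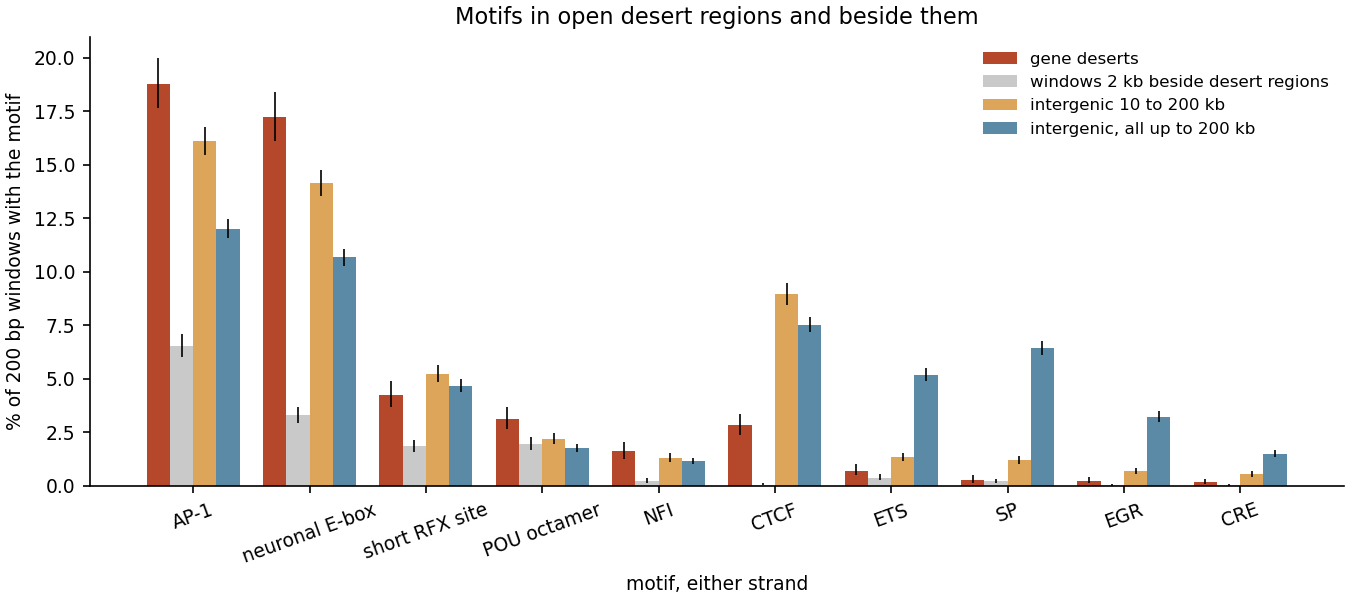
Percent of 200 bp windows holding each motif on either strand, with exact 95% binomial intervals, in desert regions, in windows 2 kb beside them, in intergenic regions 10 to 200 kb from a coding start site and in all intergenic regions up to 200 kb. AP-1 at 18.8% and the neuronal E-box at 17.2% are the tallest desert bars, and SP at 0.276% and CRE at 0.161% are among the lowest. The SOX, MEF2 and nuclear receptor letters are not drawn.

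Footprints were listed in nearly all strong desert regions and fewer of the weak ones. A footprint of replicate 1 was in 94.8% of desert regions and one of replicate 2 in 87.5%, and 84.1% (exact 95% interval 82.96 to 85.2) had one in each, where 89.5% of all autosomal shared regions did. In intergenic regions nearer to genes the shares were 96.5% in replicate 1, 94.3% in replicate 2 and 92.1% in both. In those from 10 to 200 kb they were 96.2%, 92.9% and 90.2%. Footprints are called from reads, and weak regions have fewer. In the lowest quartile of peak values 90.6% of desert regions against 90.8% of intergenic regions nearer to genes had a footprint in replicate 1, and 79.0% against 80.4% in replicate 2. In the highest quartile the shares were 100% against 99.7% in replicate 1 and 100% against 99.9% in replicate 2. In the second quartile desert regions were higher, at 98.8% against 96.2% in replicate 1 and 98.2% against 95.2% in replicate 2. Within quartiles of peak value the desert shares thus lay on both sides of those nearer to genes. For the share with a footprint in both, the difference, desert minus nearer to genes, was -7.99 percentage points over all peaks and 1.00 over the stronger 50% of peaks.

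Motifs differed in how often they lay in a footprint. The CTCF consensus lay wholly inside one at 59.7% of its 134 occurrences in desert regions in replicate 1 and 79.1% in replicate 2, against 74.4% and 89.7% nearer to genes. The E-box did so at 26.4% of 937 occurrences in replicate 1 and 21.2% in replicate 2, against 28.4% and 27.1% nearer to genes. Reversed, the E-box letters did so at 3.85% and 7.69% of 52 occurrences in desert regions. AP-1 did so at 7.47% and 8.73% of 1111 occurrences, against 6.89% and 8.17% nearer to genes, and reversed at 0.923% and 3.08% of 325. The E-box and AP-1 thus lay in footprints more often than their reversed letters in both replicates. No reversed CTCF consensus was found in a desert region.

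Fewer regions were found in both replicates in deserts than elsewhere. Of 7595 merged desert regions 57.1% (exact 95% interval 56.0 to 58.3) held a peak of each library, against 61.9% outside deserts and 65.2% in intergenic sequence nearer to genes. Desert minus outside, that is -4.74 percentage points, against -10.1 with the longer lists and -13.0 with the stronger 50% of peaks. Those found in 1 library were weak, with a median of 0.368 for the 1655 of replicate 1 and 0.383 for the 1600 of replicate 2. Of the desert regions found only in replicate 1 72.9% touched an interval listed at a false discovery rate below 0.05 in replicate 2, against 75.5% of such regions outside deserts. Of those found only in replicate 2 66.9% touched one in replicate 1, against 70.8% outside deserts. At a rate of 0.001 or less the desert shares were 13.4% and 12.9%, against 17.1% and 14.4% outside deserts. In the authors' longer lists 63.3% and 55.1% of the desert regions had a peak in the other library, against 61.3% and 57.2% outside deserts. The desert shares thus lay near those outside.

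The replicates differed in which motif went with the higher value. Values in replicate 2 were higher in most regions, so each log2 difference between replicates was centred on the median of all autosomal shared regions. Past 2-fold, 157 desert regions (3.62%) were higher in replicate 1, where 1.06% of all autosomal shared regions were, and 113 (2.60%) were higher in replicate 2, where 4.68% were. Of the 113 higher in replicate 2 40 (35.4%) held the CTCF consensus and 3 (2.65%) the AP-1 letters. Of the 157 higher in replicate 1 0 held the CTCF consensus and 43 (27.4%) the AP-1 letters. Outside the deserts the AP-1 shares of regions past 2-fold higher in replicate 1 were near that, at 29.8% in intergenic regions nearer to genes and 28.7% in genes. Over all 123 desert regions with the CTCF consensus the median centred difference, replicate 1 minus replicate 2, was -0.76, against 0.22 for those without, and 109 of 123 (88.6%) were higher in replicate 2. Over the 815 with AP-1 letters it was 0.33, against 0.18 without, and for the E-box it was 0.20 against 0.21.

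The split by CTCF was seen outside the deserts as well. Median centred differences with the consensus were -0.75 in intergenic regions nearer to genes and -0.70 in regions in genes. Uncentred, desert regions with the consensus had a median of 0.507 in replicate 1 and 1.26 in replicate 2, and those without it 0.582 and 0.695. Regions with CTCF were therefore the weaker ones in replicate 1 and the stronger ones in replicate 2. An order of desert regions by height thus depends on the replicate where CTCF is concerned. The region at chr11:27264321-27264520, between Vrk2 and Gm6685, holds the consensus and had 0.273 in replicate 1 and 1.498 in replicate 2. The region at chr5:78251549-78251800, between Igfbp7 and Adgrl3, holds AP-1 letters and had 1.13 and 0.473.

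GC content moved with the difference between replicates too. The median centred difference was 0.31 in the 758 desert regions under 40% GC, 0.21 in the 2680 from 40 to 50%, 0.12 in the 862 from 50 to 60% and -0.011 in the 40 at 60% or more. Nearer to genes it was 0.12, 0.029, -0.079 and -0.054 in the same classes. Within each class the desert value was the higher, that is further towards replicate 1. Across the 4340 desert regions the log2 values of the replicates had a Pearson r of 0.796 and a Spearman rho of 0.771, as a description across regions that share libraries. The SD of their log2 difference was 0.51, where counting error alone would give 0.21 at the inferred depth. Depth, digestion and mixture of cells can differ between the libraries, and their part in these differences was not tested.

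**Figure D5:**
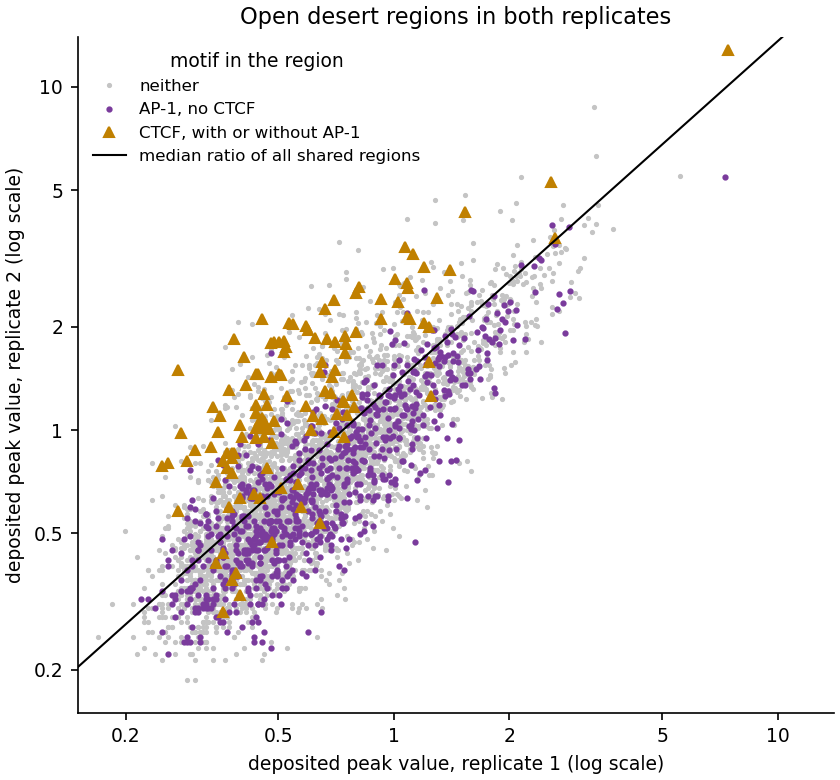
Deposited peak value of each of the 4340 desert regions in replicate 2 against replicate 1, both on log axes, with the line at the median ratio of all autosomal shared regions. Regions with the CTCF consensus (triangles) lie mostly above the line, 109 of 123, and 639 of the 815 with AP-1 letters lie below it; 21.6% of regions with AP-1 letters and 35.9% of those without lie above it.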

How the data were processed

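DNase-seq of the right cerebral cortex was deposited as lists per library on mm10, per the labels; replicates are numbered as the labels number the biological replicates. The authors deposited a signal for each peak; its scaling, the aligner and the caller are not given in the sources used. Footprints carry 1 threshold, 0.01, in all rows, and the intervals of cutting carry a false discovery rate (q-value or p-value) below 0.05, as the authors deposited them.

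Peaks of both shorter lists were merged, touching ones included, with Python 3.11.15, pandas 2.3.3 and bedtools 2.31.1. Overlap needed 1 bp. Genes and start sites came from GENCODE M21 and sequence from GRCm38. Desert sequence per Mb left out unknown bases but kept repeated sequence, where reads may not be placed. GC content and motifs were read in the central 200 bp of a region and in windows 2 kb to either side. Copy number was checked with 5 words of 32 bases per region, matched exactly on either strand. Promoters reached 500 bp to both sides of a start site. Shares carry exact (Clopper-Pearson) 95% binomial intervals, which cover counting error only. Merging and motif search were tested on simulated data.

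The members, gene lists and motifs were chosen with earlier results of these data known. Named are the genes beside the 8 strongest regions by mean log2 value, the 5 farthest, the 8 gaps with most regions, the 5 densest with at least 5 regions, and up to 5 genes per list; the sparsest long gaps, the Kcnj2 gap, the RFX palindrome and the 2 regions that differ between replicates were chosen after their values were seen. Alternatives varied the peak list, distance, overlap, peak strength, masking and replicate.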

Additional observations from a re-analysis of the deposited data

How the results depend on the processing

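Of 76 values under 10 alternatives 44 stayed within the spread between replicates, within counting error or, for the number of regions, within 1.5 times the main number; 31 moved by more and 1 reversed. The main values were 4340 regions, a density ratio of 0.312, a log2 peak value of -0.83, differences of -4.74 percentage points in the share found in both replicates, -7.99 in that with a footprint in both, -7.00 in GC content and -4.67 in CTCF share, and a width ratio of 1.00. The longer lists gave 7496 regions, a density ratio of 0.345, a shared share of -10.1, a footprint share of -15.4 and GC of -6.00. A distance of 100 kb gave 7086, 0.349, GC of -7.50 and CTCF of -3.97, and 500 kb gave 1330, 0.225, a shared share of -6.45 and GC of -8.00. A mutual overlap of 50% gave 3558 regions, a density ratio of 0.302 and GC of -7.50. The stronger 50% of peaks gave 1010 regions, a density ratio of 0.131, a log2 value of -0.51, a shared share of -13.0, GC of -8.50 and CTCF of -3.91, and the footprint share reversed to 1.00; the regions left there are the strong ones, and the cause was not tested further. With comparison regions over 10 kb from a start site, an alternative chosen after seeing the data, the log2 value was -0.48, the width ratio 1.09, GC -4.00 and CTCF -6.10. Leaving out antigen receptor clusters, also chosen after seeing the data, or mostly masked regions moved no value past those limits. With 1 replicate left out the count ran from 5976 to 6030, the density ratio from 0.321 to 0.330, the log2 value from -0.95 to -0.61, GC was -6.50, CTCF ran from -4.94 to -3.95 and the width ratio from 0.955 to 1.00; the shares that need both replicates could not be computed. No paired analysis was possible because there is 1 group. Depth limits weak regions most, since the median desert region rested on 116 reads in replicate 1 and 79 in replicate 2 at the inferred depth.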

Other observations

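Antigen receptor loci were among the places that met the position rule. The 28 regions in 3 clusters of immunoglobulin and T cell receptor segments had median values of 0.485 in replicate 1 and 0.687 in replicate 2, against 0.577 and 0.704 over all 4340 desert regions. The CTCF consensus was in 3.18% of desert regions in the lowest quartile of replicate 1 values and in 1.20% of those in the highest, while by replicate 2 values it was in 0.841% of the lowest and 8.96% of the highest quartile. Nearer to genes the shares were 8.79% and 2.85% by replicate 1 values, and 2.05% and 8.62% by replicate 2 values. The AP-1 letters were in 17.5% of the lowest and 20.4% of the highest quartile of replicate 1, and in 20.5% of the lowest and 12.7% of the highest quartile of replicate 2. Nearer to genes the AP-1 shares were 13.6% and 8.0% by replicate 1 values, and 18.4% and 5.40% by replicate 2 values. In desert regions both motifs thus had opposite orders in the replicates. MEF2 letters, those of a factor family of activity in neurons, were in 44 desert regions (1.01%), where 0.774% of all autosomal shared regions held them. They were in 1.09% of intergenic regions from 10 to 200 kb. Of the 44 desert regions 36 were higher in replicate 1 after centring and 8 (18.2%) in replicate 2. Among desert regions without those letters 33.4% were higher in replicate 2. The split was seen outside the deserts as well. There 29.7% with the letters against 53.0% without were higher in replicate 2 in intergenic regions nearer to genes, and 28.0% against 50.5% in genes.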
